A study of Mus musculus with 18 samples.

Results

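Amino acid transporter genes were followed through ovulation in the mouse follicle. They are the 42 genes, among 41325 entries of the deposited count table, whose names are Slc1a, Slc3a, Slc7a, Slc36a, Slc38a or Slc43a and a number with nothing after it. Of these, 38 passed the filter on low counts and were tested among 19941 genes. The remaining 4 (Slc1a2, Slc7a12, Slc7a13 and Slc7a14) reached at most 0.603 CPM (counts scaled to library size) in any library and were not tested.

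The study compared cumulus cells, which surround the oocyte, and mural granulosa cells, which line the follicle wall, in ovaries taken 0, 4 and 12 h after human chorionic gonadotropin (hCG), a hormone that acts on the luteinizing hormone receptor and triggers ovulation. RNA was sequenced from 3 libraries in each of the 6 groups, namely each of the 2 cell types at each of the 3 times. Every group carried the same genotype label (WT), and the labels name no strain, age or priming before hCG. Whether replicates were drawn from different animals is not stated, so the spread behind each p-value is that between samples and could be technical.

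Amino acid carriers of the plasma membrane and the lysosome differ in their substrates and in what drives them. Several members of the Slc7 family are light chains that reach the membrane only when bound to a heavy chain, Slc3a2 (also called 4F2hc or CD98) or Slc3a1 (rBAT), and exchange one amino acid for another. Carriers of the Slc1 and Slc38 families are coupled to sodium, most of the Slc36 family to protons, while the cationic amino acid carriers Slc7a1, Slc7a2 and Slc7a3 move arginine and lysine without a heavy chain. In the follicle, cumulus cells take up amino acids such as alanine and histidine that the oocyte carries poorly, and pass them to it through gap junctions.

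Library totals ran from 32211630 to 47919446 counts. A gene without a count could have had up to 3, or 0.0585 to 0.0999 CPM depending on the library. Libraries were grouped by their titles, since the cell-type characteristic reads mural in 8 of the 9 libraries titled cumulus and is missing in 1. Marker genes followed the titles: Lhcgr and Cyp11a1, defining genes of mural cells, summed to 5.45 to 28.01 CPM in cumulus cells and 1322 to 1517 CPM in mural cells at 0 h, and all 7 granulosa markers were present in both. The 16 oocyte markers summed to 491, 2343 and 2484 CPM in cumulus cells at 0 h, 2778, 1432 and 8896 CPM at 4 h and 5.68 to 11.8 CPM at 12 h, against 163 to 778 CPM over the 9 mural libraries. Theca markers summed to 0.0293 to 1.32 CPM in cumulus cells, and in mural cells to 102 to 138 CPM at 0 h and 3.36 to 7.25 CPM at 12 h. Endothelial markers reached 164 to 201 CPM in cumulus cells and 129 to 159 CPM in mural cells at 12 h, and erythroid markers up to 734 CPM in mural cells. Their part in the results was not tested, and in bulk libraries fewer cells of a type and less RNA per cell cannot be told apart. Replicate 1 of cumulus cells at 0 h (mitochondrial transcripts 12.8% of counts, the highest share) and replicate 3 of cumulus cells at 4 h (the highest oocyte sum) stood apart.

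Changes are log2 fold changes ± SE from a single edgeR model of all 18 libraries, and a gene was called where edgeR's quasi-likelihood test gave a Benjamini-Hochberg adjusted p under 0.05 over all genes tested. At 4 h against 0 h, 23 of the 38 members were called in cumulus cells, 11 higher and 12 lower, or 60.5% against 47.8% of all genes (25% higher, 22.8% lower). In mural cells 21 were called at that time, 12 higher and 9 lower, or 55.3% against 45.1% of all genes (22.8% higher, 22.3% lower). At 12 h against 0 h the count was 27 in cumulus cells (15 higher, 12 lower), 71.1% against 64.2% of all genes (31.2% higher, 32.9% lower). The mural count at 12 h was 19 (13 higher, 6 lower), 50% against 40.7% of all genes (21.6% higher, 19% lower). The members' median log2 change was 0.167 and 0.234 in cumulus cells at 4 and 12 h, against 0.126 and -0.0883 over all genes, and -0.0216 and 0.282 in mural cells, against -0.0556 and -0.0482. Scaling by library totals in place of TMM moved the all-gene median to -0.377 in mural cells at 4 h and -0.225 at 12 h, and there the members split 10 higher and 14 lower at 4 h and 11 higher and 8 lower at 12 h. In cumulus cells the split under library totals was 10 higher and 12 lower at 4 h (all-gene median -0.0104) and 14 higher and 15 lower at 12 h (all-gene median -0.34).

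Of the 38, 6 were higher in both cell types at both times: Slc3a2, Slc7a8, Slc7a11, Slc7a15, Slc7a1 and Slc36a4. Slc38a5 was lower in all 4 comparisons with 0 h. Slc38a11 was called in none. The share of all tested genes that met these conditions is not given, so these counts are a description. Levels spanned a wide range: 12 members reached a group mean of 100 CPM and 8 stayed under 1 CPM in every group.

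**Figure D1:**
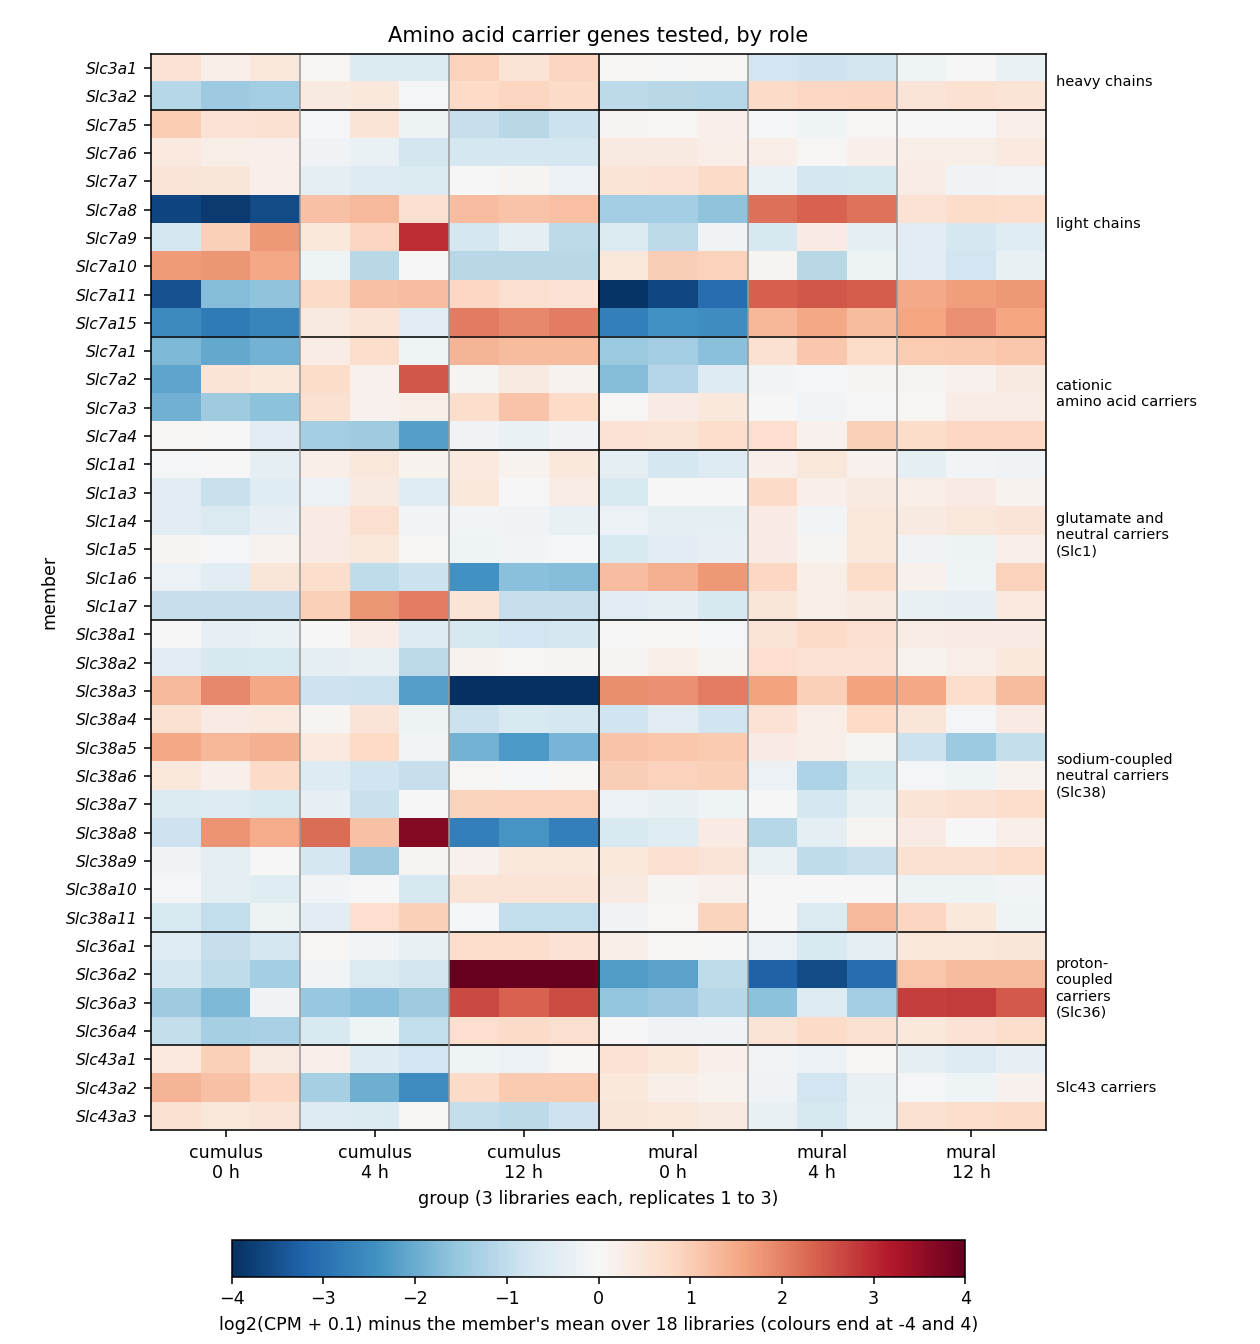
Heatmap of the 38 tested members (down the page, grouped by role) in 18 libraries (across, cumulus left of mural). Colour is log2(CPM + 0.1) minus the member's mean over all libraries, ending at -4 and 4; among the strongest shades are Slc36a2 high and Slc38a3 low in cumulus cells at 12 h, Slc7a8 low in cumulus cells at 0 h, and Slc7a11 low in mural cells at 0 h.

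The heavy chain Slc3a2 (chromosome 19, 8706882 to 8723369, minus strand), which carries light chains of the Slc7 family to the membrane, rose in both cell types. Cumulus libraries held 251, 202 and 211 CPM at 0 h, 721, 747 and 544 CPM at 4 h and 963, 1002 and 939 CPM at 12 h. Mural libraries held 269, 259 and 255 CPM at 0 h, 955, 982 and 1021 CPM at 4 h and 791, 857 and 809.7 CPM at 12 h. Every library after hCG lay above every library at 0 h of its cell type. Slc3a2 rose by 1.60 ± 0.12 (adjusted p = 4.69e-09) in cumulus cells at 4 h and by 2.13 ± 0.12 (adjusted p = 5.55e-11) at 12 h. Its mural rise was 1.92 ± 0.12 (adjusted p = 5.37e-10) at 4 h and 1.65 ± 0.12 (adjusted p = 3.1e-09) at 12 h. At 4 h it was lower in cumulus than in mural cells (-0.56 ± 0.12, adjusted p = 0.000658), a difference that was -0.18 (adjusted p = 0.367) with the oocyte marker sum as a covariate. The other heavy chain, Slc3a1, which serves the cystine and dibasic carrier of kidney and gut, stood at a lower level. It held 12.9, 10.4 and 11.9 CPM at 0 h, 9.09, 5.89 and 5.78 CPM at 4 h and 16.3, 12.4 and 15.7 CPM at 12 h in cumulus cells. Its mural libraries held 8.96, 8.71 and 8.83 CPM at 0 h, 4.99, 4.76 and 5.08 CPM at 4 h and 7.61, 8.67 and 7.05 CPM at 12 h. It fell at 4 h in cumulus cells (-0.76 ± 0.18, adjusted p = 0.00208, a call that a fit on the compared groups alone did not keep at -0.81, adjusted p = 0.0511) and in mural cells (-0.84 ± 0.18, adjusted p = 0.00105), and at 12 h its groups did not differ from 0 h beyond the test's threshold. Exons of Slc3a1 share 26.5% of their bases with the opposite-strand gene Prepl, and whether the counting used strand is not stated.

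Slc7a8 (LAT2), a light chain that exchanges large and small neutral amino acids, had the highest mean level per kb of any member at 4 and at 12 h in both cell types. Its gene lies on chromosome 14, 54722209 to 54781946, minus strand (all gene positions are GRCm38, GENCODE M21). Cumulus libraries held 64.6, 58.05 and 68.9 CPM at 0 h, 1858, 2009 and 1276 CPM at 4 h and 1919, 1805 and 1874 CPM at 12 h. Mural libraries held 316, 317 and 272 CPM at 0 h, 3772, 4175 and 3672 CPM at 4 h and 1228, 1365 and 1330.1 CPM at 12 h. No library at 0 h overlapped a later one, and mural cells peaked at 4 h while cumulus cells did not differ between 12 and 4 h beyond the threshold (0.12 ± 0.14, adjusted p = 0.472). In cumulus cells the change was 4.75 ± 0.17 (adjusted p = 6.99e-13) at 4 h and 4.87 ± 0.17 (adjusted p = 1.27e-13) at 12 h. The mural change was 3.68 ± 0.16 (adjusted p = 4.21e-12) at 4 h and 2.12 ± 0.15 (adjusted p = 2.03e-09) at 12 h, and 12 h stood below 4 h (-1.57 ± 0.14, adjusted p = 1.61e-07). Cumulus cells were lower than mural cells at 0 h (-2.24 ± 0.15, adjusted p = 3.35e-09) and at 4 h (-1.18 ± 0.14, adjusted p = 3.7e-06). At 12 h they were higher (0.51 ± 0.14, adjusted p = 0.00807), a difference whose sign turned with the oocyte covariate (-0.080).

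Slc7a5 (LAT1), the light chain best known for leucine uptake by growing cells, moved the other way in cumulus cells. They held 313, 233 and 238 CPM at 0 h, 146, 225 and 134 CPM at 4 h and 82.05, 71.3 and 84.1 CPM at 12 h. Mural cells held 166, 164 and 177 CPM at 0 h, 147, 136 and 159.8 CPM at 4 h and 153, 154 and 179 CPM at 12 h. The 12 h cumulus libraries lay below all other libraries, and the mural libraries at 12 h overlapped those at both other times. At 12 h Slc7a5 fell by 1.72 ± 0.16 on the log2 scale (adjusted p = 5.6e-08) in cumulus cells. Its fall at 4 h (-0.63 ± 0.16, adjusted p = 0.00315) was not kept by a fit on the compared groups alone (-0.68, adjusted p = 0.069) or without the cumulus libraries that stood apart (-0.35, adjusted p = 0.057). Mural changes were -0.19 ± 0.16 (adjusted p = 0.354) at 4 h and -0.059 ± 0.16 (adjusted p = 0.806) at 12 h and were not called.

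The mixture of light chains that pair with Slc3a2 changed after hCG. Genes were set side by side per kb of all annotated exons of each gene, so these comparisons depend on the annotation. Which transcripts were expressed was not tested. On this scale Slc7a8 made up 10.1, 11.1 and 12.9% of the summed CPM per kb of 6 light chains (Slc7a5, Slc7a6, Slc7a7, Slc7a8, Slc7a10 and Slc7a11) in cumulus libraries before hCG. By 4 h it made up 83.5, 80.5 and 78.6%, and by 12 h 88.2, 88.5 and 88.4%. Its share in mural cells was 45.9, 46.03 and 41.3% before hCG, 87.3, 88.8 and 86.7% at 4 h, then 72.7, 74.5 and 71.7% at 12 h. Slc7a5 held 65.8, 60.1 and 59.9% in cumulus cells at 0 h and 5.09, 4.72 and 5.35% at 12 h. Of these 6, Slc7a5 held the larger part in cumulus libraries before hCG, whereas Slc7a8 was the majority in every library after hCG. Slc7a15, described below, was left out of this sum, so the shares hold for the 6 only. Its means were 2.47, 18.6 and 64.7 CPM per kb in cumulus cells at 0, 4 and 12 h. In mural cells they were 2.72, 41.7 and 50.5 CPM per kb. The sum of the 6 light chains was 128, 104 and 107 CPM per kb in cumulus libraries at 0 h, then 445, 499 and 324 at 4 h and 435, 408 and 424 at 12 h. The heavy chain Slc3a2 in the same libraries held 71.05, 57.4 and 59.7, then 204, 212 and 154, then 273, 284 and 266 CPM per kb. In mural cells the light chains summed to 138, 138 and 131 CPM per kb at 0 h, then 864, 939 and 846, then 337, 366 and 371, and Slc3a2 held 76.3, 73.5 and 72.1, then 271, 278 and 289, then 224, 243 and 229. Light chains stood above the heavy chain in all 18 libraries on this scale, by the widest margin in mural cells at 4 h.

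**Figure D2:**
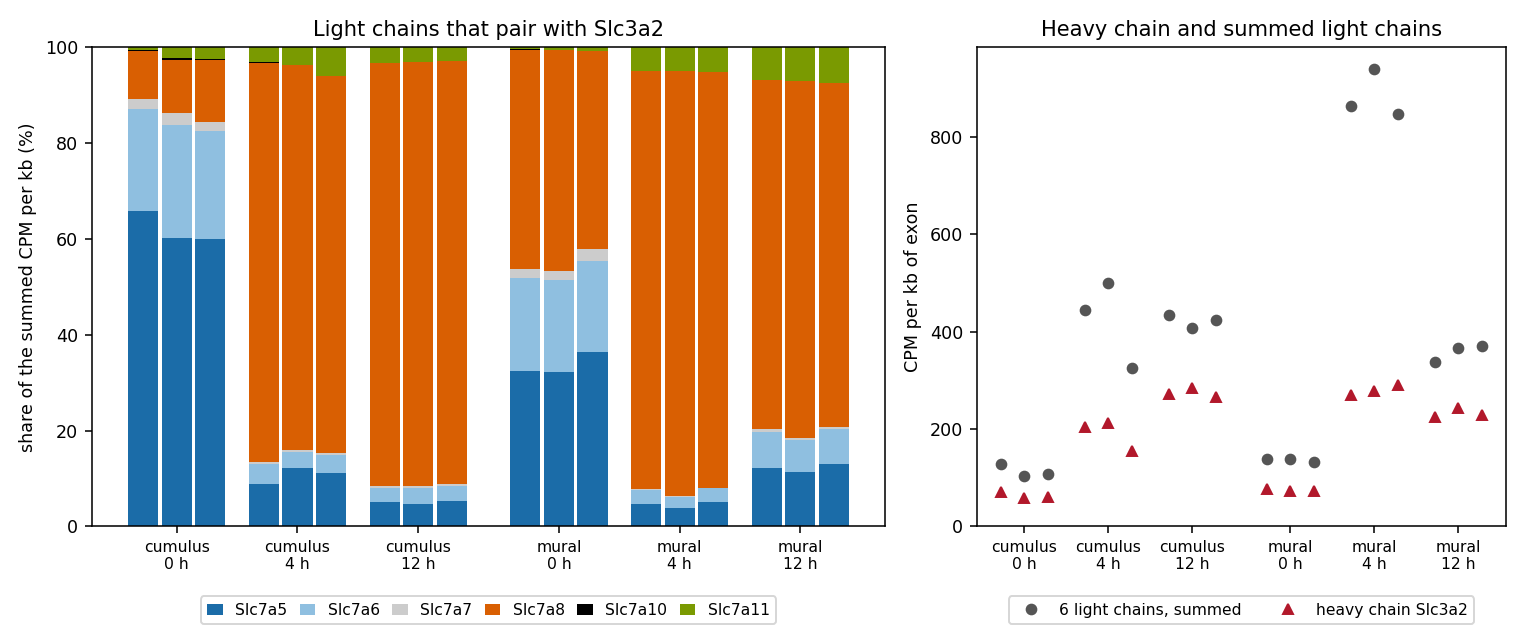
Left, share (%) of each of 6 light chains in their summed CPM per kb, 1 bar per library; right, CPM per kb of the summed light chains (circles) and of the heavy chain Slc3a2 (triangles) by library. Slc7a8 takes 10.1, 11.1 and 12.9% of the cumulus libraries at 0 h and 88.2, 88.5 and 88.4% at 12 h. Slc7a15 is not among the 6.

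Slc7a11 (xCT), which imports cystine in exchange for glutamate and so feeds glutathione synthesis, made the largest rise of any tested member in mural cells at 4 h. Its gene lies on chromosome 3, 49892526 to 50443614, minus strand. Cumulus libraries held 10.2, 33.8 and 37.3 CPM at 0 h, 195, 256 and 271 CPM at 4 h and 201, 177 and 169 CPM at 12 h. Mural libraries held 7.46, 8.99 and 13.7 CPM at 0 h, 602, 638 and 611 CPM at 4 h and 323, 359.9 and 382 CPM at 12 h. Both cell types rose without overlap, and cumulus replicate 1 at 0 h lay well under the other two. The cumulus change was 3.15 ± 0.33 (adjusted p = 5.26e-07) at 4 h and 2.75 ± 0.33 (adjusted p = 1.19e-06) at 12 h, and 5.24 ± 0.79 at 12 h with the oocyte covariate. The mural change was 5.94 ± 0.38 (adjusted p = 1e-09) at 4 h and 5.14 ± 0.37 (adjusted p = 3.7e-09) at 12 h. Cumulus cells stood below mural cells at 4 h (-1.36 ± 0.31, adjusted p = 0.00146). At 0 h they stood above them (1.43 ± 0.32, adjusted p = 0.0016), which neither a fit on the compared groups alone (1.46, adjusted p = 0.0858) nor the oocyte covariate (0.72, adjusted p = 0.0945) kept.

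Slc7a15 (arpAT), a carrier of aromatic and other neutral amino acids described in mouse, rose further at 12 h in cumulus cells. Its gene lies on chromosome 12, 8528483 to 8599066, minus strand. Cumulus libraries held 7.999, 6.68 and 7.49 CPM at 0 h, 61.4, 70.2 and 35.3 CPM at 4 h and 199.5, 183 and 198 CPM at 12 h. Mural libraries held 7.12, 8.76 and 8.52 CPM at 0 h, 119.6, 141 and 114 CPM at 4 h and 142, 169 and 142 CPM at 12 h. Groups at 4 and 12 h lay above 0 h in every library. The change was 2.91 ± 0.19 (adjusted p = 1.23e-09) at 4 h and 4.71 ± 0.21 (adjusted p = 2.39e-12) at 12 h in cumulus cells. It was 3.94 ± 0.20 (adjusted p = 4.34e-11) at 4 h and 4.22 ± 0.20 (adjusted p = 1.82e-11) at 12 h in mural cells. Between 12 and 4 h it was 1.80 ± 0.18 (adjusted p = 2.19e-07) in cumulus cells, or 0.47 (adjusted p = 0.559) with the oocyte covariate, and 0.28 ± 0.17 (adjusted p = 0.253) in mural cells.

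The remaining light chains are given in brief. Slc7a6 (y+LAT2), which exchanges cationic for neutral amino acids, held 110.03 to 125 CPM in cumulus cells at 0 h, 56.8 to 85.8 CPM at 4 h and 58.3 to 59.7 CPM at 12 h. Mural cells held 98.9 to 125 CPM over all 9 libraries. Slc7a6 fell in cumulus cells (-0.65 ± 0.12, adjusted p = 0.000196 at 4 h and -0.98 ± 0.12, adjusted p = 1.38e-06 at 12 h), and its mural changes of -0.14 and -0.024 were not called. Slc7a7 (y+LAT1), of the same exchange type, was at 3.68 to 10.3 CPM over all libraries. It fell at 4 h in cumulus cells (-0.90 ± 0.19, adjusted p = 0.000816) and in mural cells (-1.17 ± 0.19, adjusted p = 7.42e-05). Its exons share 7% of their bases with the opposite-strand gene Oxa1l. Slc7a10 (asc-1), a carrier of small neutral amino acids and D-serine in brain, held 0.601, 0.6403 and 0.529 CPM in cumulus cells at 0 h and had no count in any of the 3 cumulus libraries at 12 h. That fall was called (adjusted p = 0.000152, and adjusted p = 0.0951 with the oocyte covariate), and 17.9% of its exon bases lie opposite Lrp3. Slc7a13, a partner of Slc3a1 in mouse kidney, held 0 to 0.322 CPM over all libraries and was not tested.

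Among the cationic carriers, Slc7a1 (CAT1), the main arginine and lysine carrier of many cells, rose in both cell types. Its gene lies on chromosome 5, 148327410 to 148399904, minus strand. Cumulus libraries held 40.7, 33.98 and 37.7 CPM at 0 h, 173, 230.03 and 125 CPM at 4 h and 366, 340.5 and 338 CPM at 12 h. Mural libraries held 50.9, 53.3 and 44.4 CPM at 0 h, 217, 297 and 233 CPM at 4 h and 284, 292 and 304 CPM at 12 h. No library at 0 h reached a later one, and the cumulus groups kept the order 0, 4, 12 h without overlap. Changes were 2.23 ± 0.17 (adjusted p = 7.22e-09) at 4 h and 3.22 ± 0.18 (adjusted p = 4.11e-11) at 12 h in cumulus cells. They were 2.33 ± 0.17 (adjusted p = 4.62e-09) at 4 h and 2.57 ± 0.17 (adjusted p = 1.31e-09) at 12 h in mural cells. The further cumulus rise between 4 and 12 h (0.98 ± 0.16, adjusted p = 5.85e-05) had its sign turned by the oocyte covariate (-0.26).

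Slc7a3 (CAT3), a relative found mostly in brain, was low and rose in cumulus cells. It held 0.546, 0.8204 and 0.689 CPM at 0 h, 3.66, 2.67 and 2.78 CPM at 4 h and 3.93, 5.28 and 4.1998 CPM at 12 h in cumulus cells. Mural cells held 2.16 to 3.21 CPM over all 9 libraries, with changes of -0.33 ± 0.24 (adjusted p = 0.291) at 4 h and -0.057 ± 0.24 (adjusted p = 0.877) at 12 h that were not called. The cumulus change was 2.14 ± 0.25 (adjusted p = 1.75e-06) at 4 h and 2.69 ± 0.26 (adjusted p = 5.65e-08) at 12 h. The cumulus change minus the mural one came to 2.46 ± 0.35 (adjusted p = 0.000111) at 4 h and to 2.75 ± 0.35 (adjusted p = 8.42e-06) at 12 h. Slc7a4, a member of this branch with no established substrate, dipped in cumulus cells at 4 h. Its cumulus libraries held 15.6, 14.5 and 10.8 CPM at 0 h, 5.59, 5.46 and 3.14 CPM at 4 h and 13.4, 12.2 and 13.3 CPM at 12 h. Its mural libraries held 16.7 to 29.1 CPM. The dip was -1.53 ± 0.21 (adjusted p = 1.12e-05) in cumulus cells, against 0.026 ± 0.20 (adjusted p = 0.931) in mural cells, and the difference between the changes was -1.55 ± 0.29 (adjusted p = 0.00153). Exons of Slc7a4 share 13.3% of their bases with the opposite-strand gene P2rx6.

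**Figure D3:**
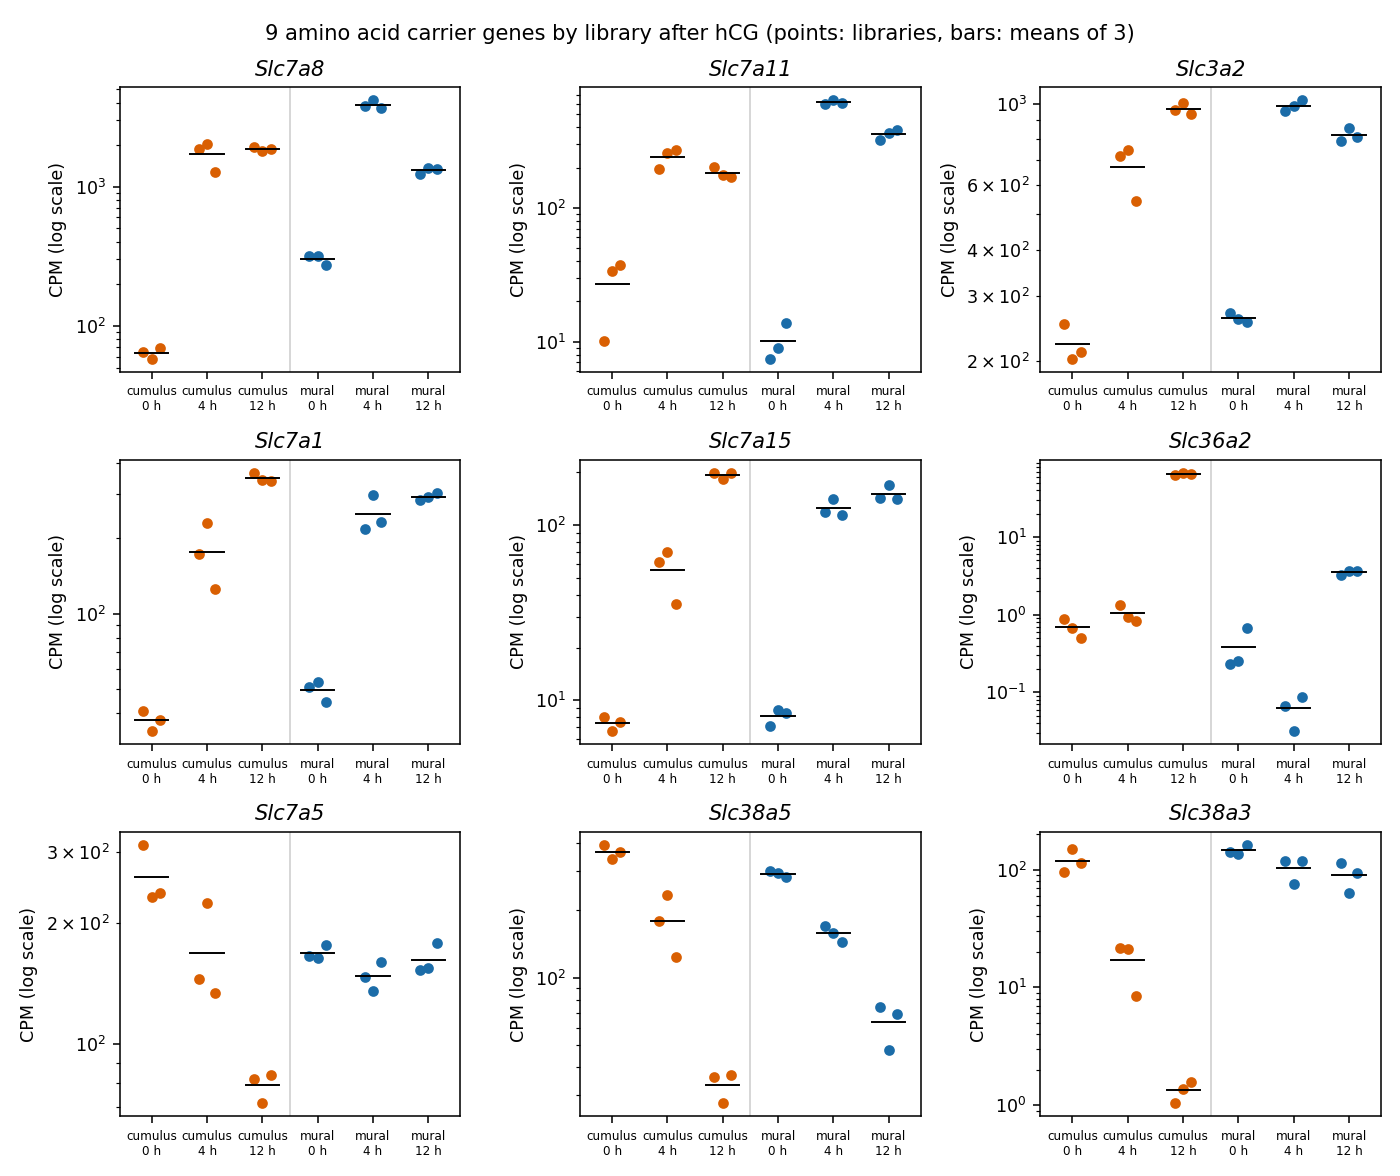
CPM (log axis) of 9 members in every library (points) with group means (bars), cumulus groups left of mural groups. Slc7a8, Slc7a11, Slc3a2, Slc7a1 and Slc7a15 lie higher at 4 and 12 h than at 0 h in both cell types, Slc36a2 is highest in cumulus cells at 12 h, and Slc38a3 falls with time in cumulus cells.

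Members that moved together were looked at in their promoters. RefSeq windows (GRCm38.p6) were matched by symbol for 31 of the 42 members (42 windows). In 31 of the 42 windows, the first 30 bases after the start occurred in an annotated transcript of the gene. The windows printed below were among these, and the motif counts used all 42. The 4 Slc7 members called higher in both cell types at both times are shown, as members of a single family, from up to 250 bases before the RefSeq start and outside the annotated gene. Slc3a2 and Slc36a4, also higher in those 4 comparisons, are of other families and are not printed. Capitals mark matches on either strand to TGATGNAA, the composite element bound by ATF4 with C/EBP proteins, to TGACTCA, the AP-1 site, or to TGACNNNGC, the core of the antioxidant response element. A cAMP response element, TGACGTCA, was also searched.
Slc7a11, chr3:50443615-50443863, minus strand: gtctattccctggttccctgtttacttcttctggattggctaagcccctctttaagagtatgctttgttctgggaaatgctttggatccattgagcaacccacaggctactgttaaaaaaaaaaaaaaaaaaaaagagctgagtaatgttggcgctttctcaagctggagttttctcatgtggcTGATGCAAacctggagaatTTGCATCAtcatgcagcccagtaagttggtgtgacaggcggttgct
Slc7a1, chr5:148399905-148400154, minus strand: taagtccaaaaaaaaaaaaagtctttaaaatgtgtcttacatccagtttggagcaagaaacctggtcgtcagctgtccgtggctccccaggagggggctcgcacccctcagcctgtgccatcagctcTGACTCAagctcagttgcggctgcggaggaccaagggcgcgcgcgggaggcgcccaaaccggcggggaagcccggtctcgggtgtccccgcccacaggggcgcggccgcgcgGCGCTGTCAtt
Slc7a8, chr14:54781947-54782136, minus strand: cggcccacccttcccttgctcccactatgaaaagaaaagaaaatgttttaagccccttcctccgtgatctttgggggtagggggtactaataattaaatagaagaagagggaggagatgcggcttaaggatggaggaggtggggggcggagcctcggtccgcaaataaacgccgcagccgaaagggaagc
Slc7a15, chr12:8599067-8599316, minus strand: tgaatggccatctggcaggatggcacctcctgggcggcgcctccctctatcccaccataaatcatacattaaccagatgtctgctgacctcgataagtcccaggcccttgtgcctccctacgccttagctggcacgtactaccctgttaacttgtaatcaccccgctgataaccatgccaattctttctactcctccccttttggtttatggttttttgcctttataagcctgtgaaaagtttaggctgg
Slc7a11 held TGATGNAA in the direction of the gene at -66 and against it at -47 from the start. Slc7a1 held TGACTCA at -123 and, against the direction of the gene, TGACNNNGC at -11. The windows of Slc7a8, Slc7a15, Slc3a2 and Slc36a4 held none of the 4. TGATGNAA was in 3 of the 42 member windows, against 3.45% of all 32841 windows of 250 bases before a RefSeq start. TGACTCA was in 2 of them, against 4.46% of all, TGACNNNGC in 4, against 10.2%, and TGACGTCA in 1, against 1.55%. The 3 windows with TGATGNAA belong to 2 genes, Slc7a11 and Slc7a7, and Slc7a7 was called lower at 4 h in both cell types. A match describes letters in a window and not a bound site.

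Of the 6 tested carriers of the Slc1 family, which couple glutamate or neutral amino acids to sodium, 2 were higher and none lower at 4 h in cumulus cells (all genes: 25% higher, 22.8% lower), and 3 were higher and none lower in mural cells (all genes: 22.8% higher, 22.3% lower). At 12 h, 2 were higher and 1 lower in cumulus cells (all genes: 31.2% higher, 32.9% lower), and 2 higher and none lower in mural cells (all genes: 21.6% higher, 19% lower). With 6 genes, these counts are a description. The 2 higher in cumulus cells at 12 h were Slc1a3 and Slc1a7. For Slc1a3 the call (0.95) was lost in 7 of 13 alternatives, with 0.019 (adjusted p = 0.992) under the oocyte covariate. For Slc1a7 it rested on 6, 0 and 0 counts in the 3 libraries at 12 h and was lost in 7 of 12 alternatives. Slc1a5 (ASCT2), an exchanger of glutamine and other small neutral amino acids, held 36.3 to 41.2 CPM in cumulus cells at 0 h, 38.6 to 51.2 at 4 h and 32.9 to 36.1 at 12 h. Mural cells held 24.3 to 29.9 CPM at 0 h, 39.9 to 50.1 at 4 h and 32.6 to 42.5 at 12 h. The mural rise at 4 h was called (0.75 ± 0.13, adjusted p = 0.000116), the cumulus change was not (0.22 ± 0.13, adjusted p = 0.164), and the difference between those changes was -0.53 ± 0.18 (adjusted p = 0.0599). Slc1a4 (ASCT1), which exchanges serine and alanine, stayed at 7.103 to 16.6 CPM over all libraries and rose at 4 h in cumulus cells by 0.77 ± 0.18 (adjusted p = 0.00206), which a fit on the compared groups alone did not keep (0.72, adjusted p = 0.0698). The glutamate carriers Slc1a1 (EAAC1), Slc1a3 (GLAST) and Slc1a6 (EAAT4) lay between 0.0296 and 3.997 CPM. Slc1a1 rose in mural cells at 4 h (0.85 ± 0.22, adjusted p = 0.00394), and 31.9% of its exon bases lie opposite the gene 4430402I18Rik. Slc1a6 fell in cumulus cells at 12 h (-2.75 ± 0.65, adjusted p = 0.00135), a call lost with the oocyte covariate (-1.88, adjusted p = 0.425). Slc1a7 had no count in the 3 cumulus libraries at 0 h and 0.269, 0.546 and 0.695 CPM at 4 h (adjusted p = 0.00057).

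In the Slc38 family of sodium-coupled neutral carriers both system N carriers were called lower after hCG in cumulus cells. One of them, Slc38a5, was called lower in mural cells as well. Slc38a3 (SNAT3, system N), which carries glutamine, histidine and alanine, fell in cumulus cells at both times. Its gene lies on chromosome 9, 107650634 to 107669530, minus strand. Cumulus libraries held 96.1, 148 and 113 CPM at 0 h, 21.6, 21.2 and 8.396 CPM at 4 h and 1.03, 1.38 and 1.58 CPM at 12 h. Mural libraries held 141, 137 and 162 CPM at 0 h, 117, 74.9 and 119 CPM at 4 h and 113, 63.5 and 93.7 CPM at 12 h. The 3 cumulus groups did not overlap each other. Mural libraries at 4 and 12 h overlapped each other, and all of them lay below the mural libraries at 0 h. In cumulus cells Slc38a3 changed by -2.80 ± 0.30 (adjusted p = 6.94e-07) at 4 h and -6.47 ± 0.38 (adjusted p = 1.16e-10) at 12 h. In mural cells the change was -0.50 ± 0.28 (adjusted p = 0.168) at 4 h and -0.70 ± 0.28 (adjusted p = 0.0586) at 12 h, neither called. The cumulus change minus the mural change was -2.30 ± 0.41 (adjusted p = 0.000929) at 4 h and -5.77 ± 0.46 (adjusted p = 5.86e-08) at 12 h. At 0 h the cell types did not differ beyond the threshold (-0.30 ± 0.28, adjusted p = 0.405), and at 12 h cumulus cells were lower, with a difference of -6.07 ± 0.37 (adjusted p = 1.72e-09). The oocyte marker sum was also lowest in cumulus cells at 12 h, so as a covariate it cannot be told apart from that group. With it the cumulus change at 12 h was -6.64 ± 0.96.

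Slc38a5 (SNAT5), the other system N carrier, had the highest level per kb of all members at 0 h in both cell types (162 ± 11.8 CPM per kb in cumulus cells and 129.9 ± 4.13 CPM per kb in mural cells, SD, n = 3 each). Its gene lies on chromosome X, 8271133 to 8280179, plus strand. Cumulus libraries held 391, 338 and 363 CPM at 0 h, 179, 235 and 124 CPM at 4 h and 36.03, 27.6 and 36.8 CPM at 12 h. Mural libraries held 299, 294 and 281 CPM at 0 h, 171, 159 and 145 CPM at 4 h and 74.5, 47.8 and 69.1 CPM at 12 h. Levels fell stepwise without overlap in both cell types. The change was -1.02 ± 0.19 (adjusted p = 0.00024) at 4 h and -3.44 ± 0.21 (adjusted p = 1.52e-10) at 12 h in cumulus cells. It was -0.88 ± 0.19 (adjusted p = 0.000955) at 4 h and -2.19 ± 0.20 (adjusted p = 6.39e-08) at 12 h in mural cells, and the 12 h fall was deeper in cumulus cells, with a difference of -1.25 ± 0.27 (adjusted p = 0.00131). After hCG the first place per kb passed to Slc7a8 in both cell types, with Slc3a2 next.

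The system A carriers Slc38a1 (SNAT1) and Slc38a2 (SNAT2), which take up alanine, serine and glutamine, were abundant in both cell types. Slc38a1 held 205, 161 and 167 CPM at 0 h, 200.3, 245 and 141 CPM at 4 h and 128, 118 and 123 CPM at 12 h in cumulus cells. Its mural libraries held 202, 211 and 194 CPM at 0 h, 292, 341 and 310.01 CPM at 4 h and 245, 249.96 and 254 CPM at 12 h. It rose in mural cells at 4 h (0.63 ± 0.15, adjusted p = 0.00163) and fell in cumulus cells at 12 h (-0.53 ± 0.15, adjusted p = 0.00418). Slc38a2, which amino acid shortage induces in many cells, held 320.1, 279 and 288 CPM at 0 h, 337, 355 and 214 CPM at 4 h and 479.98, 458 and 471 CPM at 12 h in cumulus cells. Mural cells held 477, 524 and 474 CPM at 0 h, 705, 650.2 and 648 CPM at 4 h and 484, 524 and 588 CPM at 12 h. Its cumulus rise at 12 h was 0.67 ± 0.14 (adjusted p = 0.000555), and with the oocyte covariate its sign turned (-0.32). Its mural rise at 4 h (0.44 ± 0.14, adjusted p = 0.0171) was lost under library totals (0.12, adjusted p = 0.49) and without replicate 1 or 3 of mural cells at 0 h or at 4 h (0.35 to 0.39). Slc38a4 (SNAT4), also of this system, rose in mural cells and fell in cumulus cells. Its cumulus libraries held 12.5 to 15.4 CPM at 0 h and 5.497 to 6.45 CPM at 12 h. Its mural libraries held 5.68 to 7.504 CPM at 0 h and 9.71 to 13.9 CPM at 12 h. At 12 h the change was -1.19 ± 0.20 (adjusted p = 6.71e-05) in cumulus cells and 0.94 ± 0.20 (adjusted p = 0.00111) in mural cells, with a difference of -2.12 ± 0.29 (adjusted p = 1.89e-05).

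Slc38a6, whose substrates are less settled, fell in both cell types at 4 h. It held 15.02, 13.1 and 19.3 CPM at 0 h, 7.88, 6.496 and 5.87 CPM at 4 h and 11.7, 10.99 and 11.7 CPM at 12 h in cumulus cells. Mural cells held 22.5, 21.6 and 21.98 CPM at 0 h, 9.55, 4.73 and 7.31 CPM at 4 h and 10.95, 10.1 and 12.3 CPM at 12 h. The 4 h libraries lay below those of 0 h in both. The change at 4 h was -1.23 ± 0.21 (adjusted p = 8.68e-05) in cumulus cells and -1.61 ± 0.21 (adjusted p = 5.15e-06) in mural cells. Slc38a7 and Slc38a9 sit in the lysosome, where Slc38a7 exports glutamine and asparagine and Slc38a9 senses arginine for the kinase mTORC1. Slc38a7 held 19.3, 19.5 and 18.4 CPM at 0 h, 22.1, 14.96 and 28.4 CPM at 4 h and 52.3, 53.4 and 53.5 CPM at 12 h in cumulus cells. Its mural libraries held 23.6, 22.5 and 24.6 CPM at 0 h, 27.4, 17.1 and 22.9 CPM at 4 h and 40.9, 42.6 and 45.1 CPM at 12 h. It rose at 12 h in cumulus cells (1.48 ± 0.18, adjusted p = 1.2e-06) and in mural cells (0.86 ± 0.18, adjusted p = 0.000656), with no overlap between 12 and 0 h. Slc38a9 held 14.1, 12.1 and 15.9 CPM at 0 h, 9.74, 5.77 and 16.96 CPM at 4 h and 17.7, 21.4 and 20.8 CPM at 12 h in cumulus cells. It held 21.6, 24.3 and 22.4 CPM at 0 h, 13.05, 7.74 and 8.4001 CPM at 4 h and 23.96, 24.1 and 25.6 CPM at 12 h in mural cells, where the 4 h libraries were the lowest (-1.23 ± 0.27, adjusted p = 0.00125). In cumulus cells that change was -0.37 ± 0.27 (adjusted p = 0.263) and was not called. Slc38a10, less well known, held 354 to 355 CPM in cumulus cells at 12 h and 174 to 236 CPM at 0 h. Its change at 12 h was 0.84 ± 0.14 (adjusted p = 4.61e-05) in cumulus cells, with a sign that turned under the oocyte covariate (-0.30). The mural change was -0.39 ± 0.14 (adjusted p = 0.0311), lost without replicate 1 at 0 h (-0.33) or replicate 1 or 2 at 12 h (-0.38 and -0.38). Slc38a11 stayed at 0 to 0.382 CPM.

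All 4 genes of the Slc36 family, whose best-known members couple small neutral amino acids to protons, were called higher at 12 h than at 0 h in both cell types, as were 31.2% of all genes in cumulus cells and 21.6% in mural cells. Slc36a2 (PAT2), a high-affinity carrier of glycine and proline, had the largest rise of any tested member in cumulus cells at 12 h. Cumulus libraries held 0.874, 0.6803 and 0.506 CPM at 0 h, 1.35, 0.941 and 0.834 CPM at 4 h and 63.8, 67.8 and 64.1 CPM at 12 h. Mural libraries held 0.234, 0.252 and 0.677 CPM at 0 h, 0.0666, 0.0317 and 0.0881 CPM at 4 h and 3.26, 3.68 and 3.64 CPM at 12 h. The 12 h libraries stood far above all others in cumulus cells and above all others in mural cells, and mural libraries at 4 h were below those at 0 h, at levels near the CPM of 3 counts. Slc36a2 rose by 6.57 ± 0.32 (adjusted p = 8.49e-12) in cumulus cells at 12 h, while its change at 4 h (0.62 ± 0.30, adjusted p = 0.0993) was not called. In mural cells it was lower at 4 h (-2.57 ± 0.51, adjusted p = 0.000461) and rose at 12 h by 3.17 ± 0.31 (adjusted p = 1.44e-07). Cumulus cells exceeded mural cells at 12 h by 4.21 ± 0.28 (adjusted p = 3.75e-09). The cumulus rise at 12 h was 6.56 ± 0.85 with the oocyte covariate, which cannot be told apart from that group.

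Slc36a2 lies between its relatives Slc36a3 and Slc36a1 on chromosome 11, with gaps of 6.76 and 19.3 kb. Slc36a3 (PAT3), a testis carrier with no known substrate, was near 0 before 12 h. It held 0.0546, 0.02001 and 0.276 CPM at 0 h, 0.0449, 0.0304 and 0.0556 CPM at 4 h and 2.45, 2.02 and 2.404 CPM at 12 h in cumulus cells. Mural cells held 0.03903, 0.0504 and 0.0874 CPM at 0 h, 0.0333, 0.1903 and 0.0587 CPM at 4 h and 2.72, 2.8001 and 2.17 CPM at 12 h. The 12 h libraries lay above all others in both cell types, and the 12 h change was 4.26 ± 0.62 (adjusted p = 1.14e-05) in cumulus cells and 5.37 ± 0.67 (adjusted p = 3.7e-06) in mural cells. Slc36a1 (PAT1), which also acts at the lysosome in nutrient sensing, held 35.8, 26.8 and 31.8 CPM at 0 h, 51.9, 46.6 and 41.3 CPM at 4 h and 81.5, 82.8 and 75.2 CPM at 12 h in cumulus cells. Its mural libraries held 59.02, 52.4 and 51.1 CPM at 0 h, 42.9, 32.99 and 38.9 CPM at 4 h and 67.9, 69.3 and 70.1 CPM at 12 h. At 4 h it rose in cumulus cells (0.57 ± 0.12, adjusted p = 0.000675) and fell in mural cells (-0.50 ± 0.12, adjusted p = 0.00201), and the difference between the changes was 1.07 ± 0.17 (adjusted p = 0.000327). At 12 h it rose in cumulus cells by 1.34 ± 0.12 (adjusted p = 2.43e-08), or 0.68 (adjusted p = 0.0854) with the oocyte covariate. Its mural rise at 12 h (0.35 ± 0.12, adjusted p = 0.0234) was lost under library totals (0.18, adjusted p = 0.234) and without replicate 2 or 3 of mural cells at 0 h or at 12 h (0.30 to 0.35).

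Slc36a4 (PAT4), a carrier of proline and tryptophan that does not need a proton gradient, lies apart from these on chromosome 9 and was called higher in all 4 comparisons with 0 h. Cumulus libraries held 15.9, 12.2 and 12.3 CPM at 0 h, 20.3, 26.9 and 15.3 CPM at 4 h and 49.03, 52.3 and 47.4 CPM at 12 h. Mural libraries held 29.996, 27.7 and 28.01 CPM at 0 h, 45.01, 52.2 and 46.4 CPM at 4 h and 40.9, 45.5 and 49.5 CPM at 12 h. Cumulus libraries at 4 h overlapped those at 0 h, and those at 12 h did not. The change was 1.88 ± 0.16 (adjusted p = 1.36e-08) in cumulus cells at 12 h, and 0.76 (adjusted p = 0.109) with the oocyte covariate. At 4 h it was 0.63 ± 0.16 (adjusted p = 0.00294) there, which a fit on the compared groups alone did not keep (0.58, adjusted p = 0.117). In mural cells it was 0.74 ± 0.16 (adjusted p = 0.000734) at 4 h and 0.66 ± 0.16 (adjusted p = 0.00209) at 12 h.

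In the Slc43 family, of which Slc43a1 and Slc43a2 let neutral amino acids pass without sodium, all 3 genes were called lower at 4 h in cumulus cells (22.8% of all genes) and 2 in mural cells (22.3% of all genes). The calls of Slc43a1 in cumulus cells and Slc43a2 in mural cells were lost in alternatives given with their values. Slc43a2 (LAT4), a carrier of branched-chain amino acids, phenylalanine and methionine, dipped and came back in cumulus cells. They held 27.9, 24.5 and 19.5 CPM at 0 h, 4.31, 2.702 and 1.86 CPM at 4 h and 18.6, 22.6 and 22.4 CPM at 12 h. Mural cells held 14.7, 12.8 and 11.9 CPM at 0 h, 9.89, 6.34 and 8.78 CPM at 4 h and 10.4, 9.65 and 12.2 CPM at 12 h. Cumulus libraries at 4 h were the lowest of all 18 and did not overlap those at 0 or 12 h. The change at 4 h was -3.01 ± 0.25 (adjusted p = 2.39e-08) in cumulus cells, and 12 h did not differ from 0 h beyond the threshold (-0.17 ± 0.23, adjusted p = 0.524). The mural change at 4 h was -0.66 ± 0.23 (adjusted p = 0.0298), lost without replicate 1 at 0 h (-0.62) or replicate 2 at 4 h (-0.48). The cumulus change at 4 h was the lower, with a difference of -2.35 ± 0.34 (adjusted p = 0.000139). Slc43a2 shares 9.18% of its exon bases with the opposite-strand gene Gm45606. Slc43a3, which was found to carry purine bases in place of amino acids, held 44.3, 39.9 and 41.3 CPM at 0 h, 20.3, 19.9 and 30.4 CPM at 4 h and 14.8, 13.9 and 16.4 CPM at 12 h in cumulus cells. In mural cells it held 40.6, 39.3 and 36.7 CPM at 0 h, 23.7, 18.6 and 23.8 CPM at 4 h and 43.8, 47.3 and 48.8 CPM at 12 h. It fell at 4 h in cumulus cells (-0.83 ± 0.14, adjusted p = 0.00011) and in mural cells (-0.82 ± 0.14, adjusted p = 0.000138). At 12 h it was lower still in cumulus cells (-1.47 ± 0.15, adjusted p = 9.28e-08) and not called in mural cells (0.26 ± 0.14, adjusted p = 0.157), with a difference of -1.74 ± 0.20 (adjusted p = 3.67e-06). Slc43a1 (LAT3) was at 1.75 to 5.92 CPM over all libraries and fell at 4 h in cumulus cells (-0.91 ± 0.27, adjusted p = 0.00885), which a fit on the compared groups alone (-0.96, adjusted p = 0.095) or without replicate 2 at 0 h (-0.68, adjusted p = 0.0597) did not keep.

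**Figure D4:**
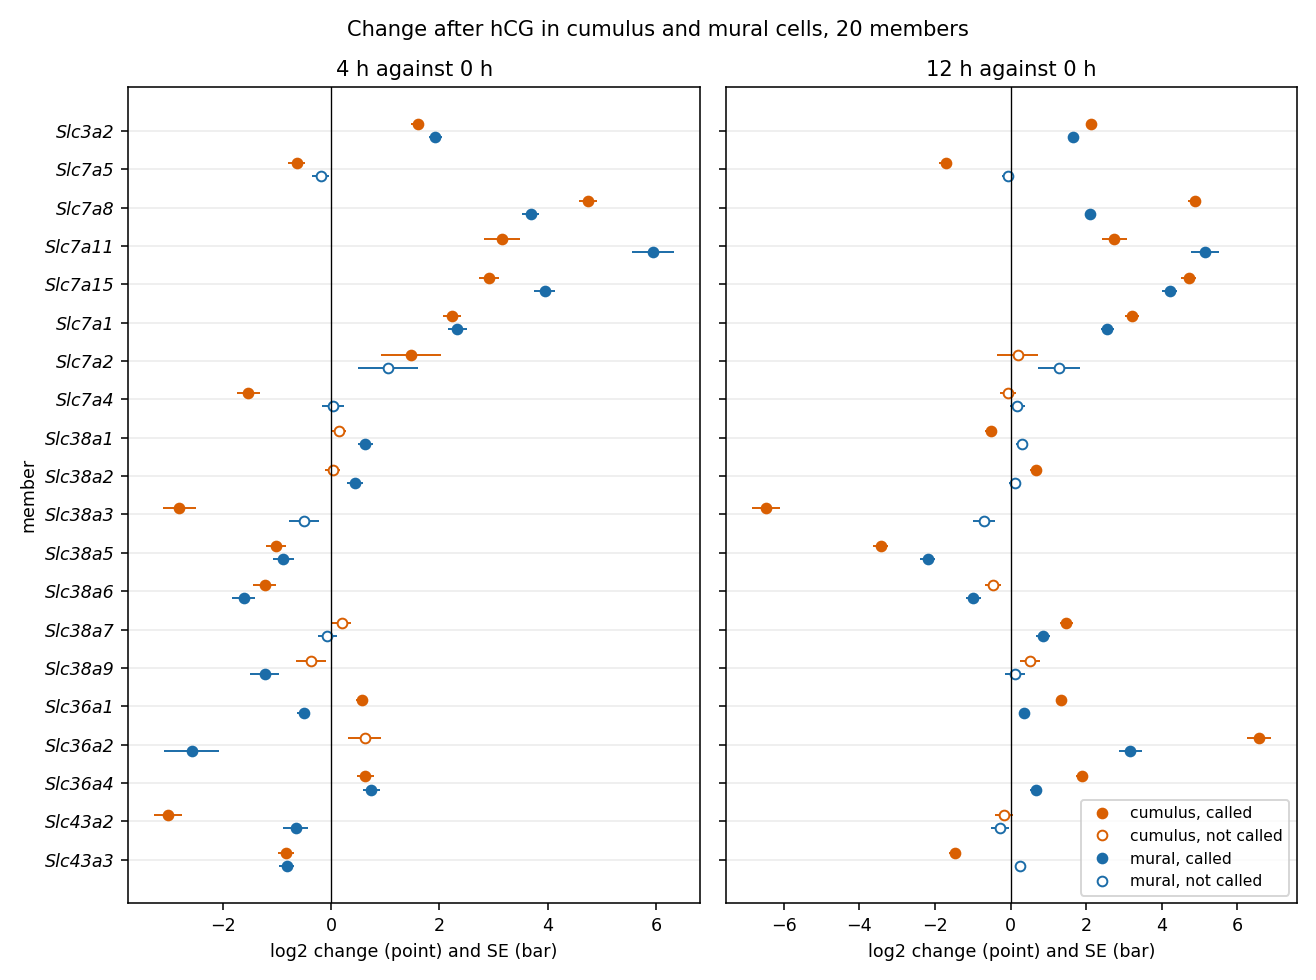
Log2 change ± SE (bars) of 20 members at 4 h and at 12 h against 0 h, in cumulus cells (orange) and mural cells (blue); filled points are called. Slc38a3 at 12 h (-6.47 in cumulus cells, -0.70 in mural cells) and Slc36a2 at 12 h (6.57 in cumulus cells, 3.17 in mural cells) show wide gaps between the cell types.

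Cumulus and mural cells differed in 14 of the 38 members before hCG, 5 higher and 9 lower in cumulus cells, or 36.8% against 46.8% of all genes (21.5% higher, 25.3% lower). At 4 h they differed in 18 (6 higher, 12 lower), 47.4% against 54.5% of all genes (27.6% higher, 27% lower). At 12 h they differed in 18 (6 higher, 12 lower), 47.4% against 38.5% of all genes (18% higher, 20.5% lower). At 0 h the largest difference among members of at least 20 CPM was that of Slc7a8, given above, and Slc7a5 was higher in cumulus cells (0.63 ± 0.16, adjusted p = 0.00395). Slc38a2 was lower in cumulus cells at 0 h (-0.73 ± 0.14, adjusted p = 0.000457), as was Slc36a4 (-1.09 ± 0.16, adjusted p = 2.47e-05). At 12 h Slc7a5 was lower in cumulus cells (-1.03 ± 0.16, adjusted p = 6.61e-05), as was Slc38a5 (-0.93 ± 0.19, adjusted p = 0.000923).

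The change after hCG itself differed between the cell types in 11 members at 4 h (4 with the higher change in cumulus cells, 7 with the lower), 28.9% against 14% of all genes (6.78% higher, 7.26% lower). At 12 h it differed in 20 (9 higher, 11 lower), 52.6% against 40.1% of all genes (20.1% higher, 20% lower). For Slc7a8 the cumulus change was the larger by 1.06 ± 0.20 (adjusted p = 0.00155) at 4 h and 2.75 ± 0.20 (adjusted p = 2.33e-08) at 12 h. For Slc7a11 it was the smaller, at -2.79 ± 0.45 (adjusted p = 0.000428) at 4 h and -2.40 ± 0.45 (adjusted p = 0.000414) at 12 h, the second of which was -0.11 with the oocyte covariate. For Slc7a5 it differed by -1.66 ± 0.23 (adjusted p = 1.98e-05) at 12 h. Between 12 and 4 h, 30 members were called in cumulus cells (16 higher, 14 lower), 78.9% against 60.5% of all genes (29.2% higher, 31.3% lower), and 11 in mural cells (9 higher, 2 lower), 28.9% against 34.5% of all genes (18.3% higher, 16.1% lower).

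Among the members, 3, chosen after their values were seen, were high in the same libraries as oocyte RNA. Slc7a2 (CAT2), an arginine carrier, held 3.69, 23.6 and 21.7 CPM at 0 h, 26.8, 18.3 and 91.4 CPM at 4 h and 17.3, 20.99 and 17.99 CPM at 12 h in cumulus cells. In mural cells it held 4.76, 7.08 and 11.2 CPM at 0 h, 15.1, 15.3 and 17.4 CPM at 4 h and 17.4, 18.1 and 20.95 CPM at 12 h. The highest value stood in cumulus replicate 3 at 4 h, where the oocyte sum was 8896 CPM, and the lowest in cumulus replicate 1 at 0 h, where it was 491 CPM. The cumulus change at 4 h was called (1.47 ± 0.55, adjusted p = 0.0352), and without both of these libraries it was -0.0049 (adjusted p = 0.996). The call was lost in 9 of 13 alternatives, and leaving out cumulus replicate 3 at 4 h alone gave 0.46 (adjusted p = 0.565). Cumulus cells at 12 h still held Slc7a2 at 17.3 to 20.99 CPM with an oocyte sum of 5.68 to 11.8 CPM. Slc38a8, a glutamine carrier best known in the retina, held 0.273, 2.22 and 1.75 CPM at 0 h, 3.01, 1.396 and 8.34 CPM at 4 h and 0, 0.0293 and 0 CPM at 12 h in cumulus cells. Its 12 h libraries had a single count in all. Slc7a9 (b0,+AT), the partner of Slc3a1, held 0.0273, 0.3001 and 0.597 CPM at 0 h, 0.1796, 0.273 and 1.501 CPM at 4 h and 0.0296, 0.0586 and 0 CPM at 12 h in cumulus cells. Both were highest in cumulus replicate 3 at 4 h, and over the mural libraries they held 0.1997 to 0.743 CPM (Slc38a8) and 0 to 0.159 CPM (Slc7a9). The fall between 0 and 12 h in cumulus cells was called for Slc38a8 (adjusted p = 4.9e-05) and for Slc7a9 (adjusted p = 0.0263). With the oocyte marker sum as a covariate neither was called, and both signs turned. The values were then 0.48 (adjusted p = 0.977) for Slc38a8 and 6.05 (adjusted p = 0.0823) for Slc7a9. These fits cannot tell whether oocyte RNA accounts for the falls, since the covariate was far lower in cumulus cells at 12 h than in every other library. The call for Slc7a9 was also lost without cumulus replicate 3 at 0 h (-2.47, adjusted p = 0.121) and without replicate 1 (-3.32, adjusted p = 0.0671) or 3 (-2.72, adjusted p = 0.0941) at 12 h.

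**Figure D5:**
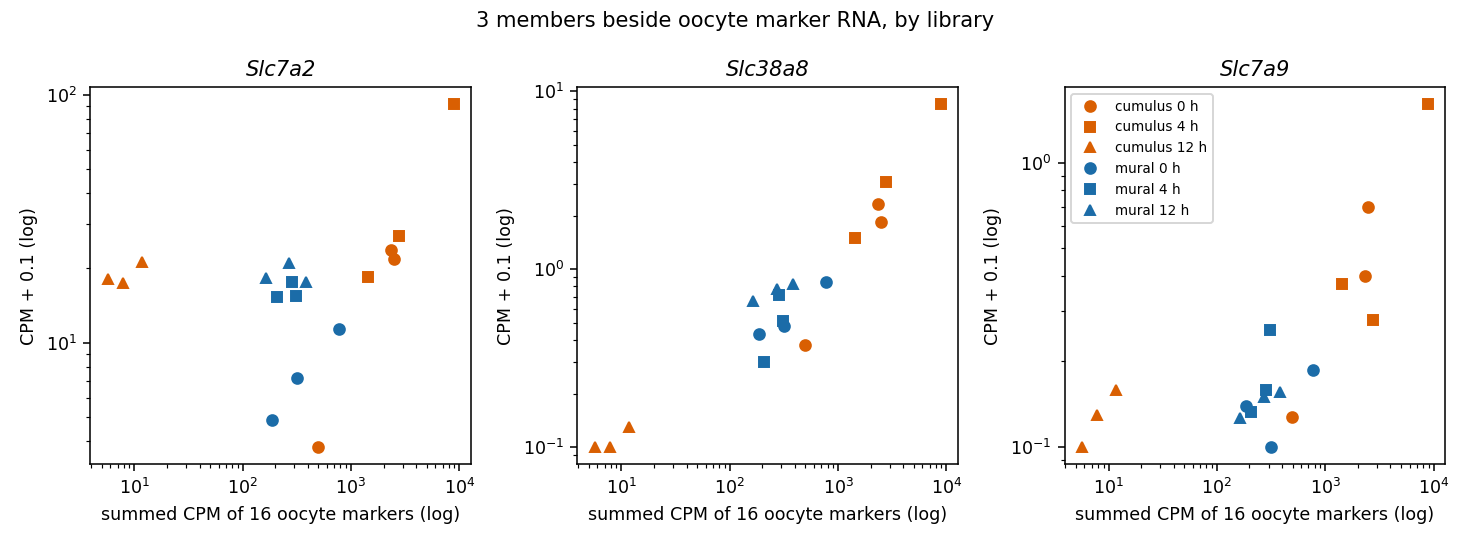
CPM + 0.1 of Slc7a2, Slc38a8 and Slc7a9 (log axis) against the summed CPM of 16 oocyte markers (log axis) in each of 18 libraries. The highest point in each panel is cumulus replicate 3 at 4 h, at an oocyte sum of 8896 CPM, and Slc7a2 stays at 17.3 to 20.99 CPM in cumulus cells at 12 h.

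Genes around these carriers were counted in lists, and each rise or fall named for them was called over all genes at an adjusted p under 0.05. The amino acid response, the set of genes that the transcription factor ATF4 induces when amino acids run short, had 13 of its 19 tested genes higher and 1 lower at 4 h in cumulus cells, where 25% of all genes were higher and 22.8% lower (median log2 change 0.918, against 0.126 over all genes). In mural cells 12 were higher and 1 lower at 4 h, against 22.8% and 22.3% of all genes (median 0.513, against -0.0556). At 12 h, 10 were higher and 4 lower in cumulus cells, against 31.2% and 32.9% of all genes (median 0.897, against -0.0883). In mural cells 9 were then higher and 2 lower, against 21.6% and 19% of all genes (median 0.635, against -0.0482). Atf4 rose by 1.32 ± 0.14 in cumulus cells and 1.26 ± 0.14 in mural cells at 4 h. Psat1, an enzyme of serine synthesis, rose by 2.08 ± 0.17 in cumulus cells and 1.83 ± 0.17 in mural cells. Asns, asparagine synthetase, rose by 1.10 ± 0.19 at 4 h in cumulus cells, where its change at 12 h was -0.027 ± 0.19, not called. Nupr1, a small stress-response protein, rose by 5.65 ± 0.13 in cumulus cells and 3.37 ± 0.12 in mural cells at 12 h. Other changes went down. Aldh18a1 changed by -1.21 ± 0.12 in cumulus cells at 12 h against 0 h. Psat1 changed by -2.62 ± 0.17 in cumulus cells and -1.20 ± 0.17 in mural cells at 12 h against 4 h.

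Of 25 genes of amino acid sensing by mTORC1, 6 were higher and 11 lower at 4 h in cumulus cells (all genes: 25% and 22.8%), and 14 higher and 2 lower at 12 h (all genes: 31.2% and 32.9%). In mural cells 5 were higher and 9 lower at 4 h (all genes: 22.8% and 22.3%), and 9 higher and 4 lower at 12 h (all genes: 21.6% and 19%). The list's median log2 change was -0.0912 and 0.42 in cumulus cells at 4 and 12 h, and -0.108 and 0.0739 in mural cells. Rragd, a small GTPase that docks mTORC1 at the lysosome, had the largest change of the list. It held 2.46, 2.18 and 1.54 CPM at 0 h, 94.9, 84.1 and 45.7 CPM at 4 h and 144, 135 and 137 CPM at 12 h in cumulus cells. Mural cells held 2.69, 4.31 and 4.41 CPM at 0 h, 172, 208 and 166 CPM at 4 h and 212, 234 and 198 CPM at 12 h. Every library after hCG lay above those at 0 h, with changes of 5.19 ± 0.27 at 4 h and 6.07 ± 0.28 at 12 h in cumulus cells. In mural cells they were 5.59 ± 0.27 at 4 h and 5.82 ± 0.27 at 12 h.

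Of 14 tested genes for other amino acid carriers, 5 were higher and 3 lower at 4 h in cumulus cells (all genes: 25% and 22.8%), and 5 higher and 4 lower in mural cells (all genes: 22.8% and 22.3%). At 12 h, 6 were higher and 6 lower in cumulus cells (all genes: 31.2% and 32.9%), and 3 higher and 3 lower in mural cells (all genes: 21.6% and 19%). Slc6a6, the taurine carrier, rose by 2.16 ± 0.16 in cumulus cells and 2.30 ± 0.16 in mural cells at 4 h. Slc16a10, which lets aromatic amino acids pass, rose by 3.58 ± 0.20 in cumulus cells and 1.99 ± 0.19 in mural cells. Slc6a15, a carrier of branched-chain amino acids and proline, fell by 2.64 ± 0.15 on the log2 scale in cumulus cells and fell by 1.76 ± 0.15 in mural cells at 12 h. Of 23 genes for the use of amino acids, 6 were higher and 9 lower at 4 h in cumulus cells, against 10 higher and 8 lower in mural cells (all genes at 4 h: 25% and 22.8% in cumulus cells, 22.8% and 22.3% in mural cells). The 12 h counts were 6 higher and 9 lower in cumulus cells, against 9 higher and 10 lower in mural cells (all genes at 12 h: 31.2% and 32.9% in cumulus cells, 21.6% and 19% in mural cells). Glul, glutamine synthetase, rose by 2.98 ± 0.20 in cumulus cells and 2.39 ± 0.19 in mural cells at 4 h. Gclc, the catalytic subunit of the enzyme that starts glutathione synthesis from the cysteine that Slc7a11 brings in as cystine, rose by 1.71 ± 0.16 in cumulus cells and 2.72 ± 0.16 in mural cells. Cbs, which starts the route from homocysteine to cysteine, fell by 2.32 ± 0.28 on the log2 scale in cumulus cells and fell by 2.004 ± 0.28 in mural cells. Cth, of the same list, went the other way at 4 h, by 2.46 ± 0.19 in cumulus cells and 1.01 ± 0.19 in mural cells. At 12 h against 0 h its mural change was -1.25 ± 0.20. Odc1, which makes putrescine from ornithine, rose by 2.16 ± 0.22 in cumulus cells and 3.85 ± 0.24 in mural cells at 4 h. At 12 h against 4 h Gclc changed by -1.45 ± 0.15 in cumulus cells and -1.85 ± 0.16 in mural cells. Odc1 then changed by -1.98 ± 0.22 in cumulus cells and -1.86 ± 0.22 in mural cells. Of 4 tested partners and regulators of transport, 1 was higher and 1 lower at 4 h in cumulus cells (all genes: 25% and 22.8%). In mural cells 0 were higher and 1 lower at 4 h (all genes: 22.8% and 22.3%). At 12 h, 2 were higher and 1 lower in cumulus cells (all genes: 31.2% and 32.9%). None was called in mural cells at 12 h (all genes: 21.6% and 19%). With 4 genes, these counts are a description.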

How the data were processed

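Poly(A) RNA of cumulus and mural cells was sequenced from stranded mRNA libraries, per the labels' protocols and design text. The authors deposited 1 table of whole-number counts per gene, 1 column for each of the 18 libraries, made in CLC Genomics Workbench at default parameters per the series' design text, on GRCm38 per the submitters' processing notes. No label or header states the program's version, the annotation or the strand setting. Library totals were 32211630 to 47919446 counts. Intervals are not given for single counts, and the floor of 3 counts covers counting error only.

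The deposited counts were filtered with edgeR's filterByExpr (version 4.0.16 under R 4.3.3, minimum count 10), which kept 19941 of 41325 entries and 99.964% of the counts, and scaled by TMM (factors 0.8492 to 1.177). A single quasi-likelihood model (glmQLFit, glmQLFTest) with 1 coefficient for each of the 6 groups and 12 residual degrees of freedom gave 11 comparisons: 4 and 12 h against 0 h and 12 h against 4 h in each cell type, the 2 cell types against each other at every time, and the changes at 4 and 12 h against each other between cell types. P-values were adjusted by Benjamini and Hochberg over all genes tested in each comparison. Each SE is the absolute log2 change divided by the square root of the F statistic of that test, and is not an output of the fit itself. CPM are deposited counts over library total times TMM factor. CPM per kb divides by the summed length of a gene's exons in GENCODE M21, and positions were matched by gene name to the same annotation.

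Values in every library are given for a member that reached a group mean of 20 CPM and met a limit on change. That limit was a call with an absolute log2 change of at least 1 against 0 h or between cell types. The heavy chains and their light-chain partners are described in any case. Genes of the other lists are examples within limits of the same size, and not every gene within them is named. The members, lists and alternatives were chosen with earlier results of these data known. Alternatives were DESeq2 (version 1.42.0), library totals, no filter, a fit on the compared groups alone, the log2 oocyte marker sum as a covariate, the replicate number as a block, each library left out, and 2 cumulus libraries left out together. Promoter windows come from RefSeq (GRCm38.p6), and 11 members have none.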

Additional observations from a re-analysis of the deposited data

Results flagged for a closer look

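Each value here is the log2 change of cumulus cells minus that of mural cells, ± SE, from the interaction contrast of the edgeR fit over all genes. Each is listed because that contrast gave an adjusted p under 0.05, so the difference itself was tested.

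At 4 h the change was larger in cumulus cells for 4 members. The difference was 3.19 ± 0.60 for the glycine and proline carrier Slc36a2, whose mural libraries at 4 h lay near the limit that a count of 0 allows. It was 2.46 ± 0.35 for the cationic carrier Slc7a3. For Slc36a1, called in opposite directions in the cell types, it was 1.07 ± 0.17, and for the light chain Slc7a8 it was 1.06 ± 0.20.

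The change at 4 h was lower in cumulus cells for 7 members. The difference was -2.79 ± 0.45 for the cystine carrier Slc7a11, -2.35 ± 0.34 for Slc43a2 and -2.30 ± 0.41 for the system N carrier Slc38a3. It was -1.55 ± 0.29 for Slc7a4 and -1.50 ± 0.29 for the system A carrier Slc38a4. It was -1.03 ± 0.26 for Slc7a15, where a fit on the compared groups alone gave -1.01, adjusted p = 0.0606. It was -0.51 ± 0.17 for Slc7a6, a call lost in 14 of 19 alternatives, with -0.31 without cumulus replicate 3 at 4 h.

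At 12 h the change was larger in cumulus cells for 9 members. The difference was 3.40 ± 0.42 for Slc36a2, 2.75 ± 0.20 for Slc7a8 and 2.75 ± 0.35 for Slc7a3. For Slc38a10 it was 1.23 ± 0.20, for Slc36a4 1.22 ± 0.22 and for Slc36a1 0.99 ± 0.17. With the oocyte marker sum as a covariate these last 3 were 0.16, 0.17 and 0.37 in the same order, and none was called. For the arginine carrier Slc7a1 it was 0.65 ± 0.23, for Slc38a2 0.55 ± 0.20 and for the heavy chain Slc3a2 0.48 ± 0.16. The sign of these 3 turned with the covariate. Each of the 3 calls was also lost on leaving out any of several single libraries (values from 0.39 to 0.67).

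At 12 h the change was lower in cumulus cells for 11 members. The difference was -5.77 ± 0.46 for Slc38a3 and -1.25 ± 0.27 for Slc38a5, the system N carriers. It was -2.40 ± 0.45 for Slc7a11, -2.12 ± 0.29 for Slc38a4 and -1.74 ± 0.20 for Slc43a3. For Slc7a5 it was -1.66 ± 0.23, for Slc7a6 -0.95 ± 0.17, for Slc38a1 -0.83 ± 0.21 and for Slc1a5 -0.61 ± 0.18. With the oocyte covariate the calls of Slc7a11 (-0.11, adjusted p = 0.943) and Slc1a5 (-0.81, adjusted p = 0.115) were lost. For Slc38a8 it was -7.24 ± 1.39 and for Slc7a10 -5.20 ± 1.79. The calls of these 2 were also lost with the oocyte covariate, which left 7 members called lower. Both rest on cumulus libraries with 1 count in all (Slc38a8) or none (Slc7a10) at 12 h. Their fitted values and SE thus depend on the prior count and are no bounds. The oocyte marker sums differed between the groups, and their part was not tested beyond this covariate.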

How the results depend on the processing

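Over the 38 tested members, 212 values were called, and 124 kept direction and call in every alternative, among them 64 of the 90 against 0 h. Of 2864 alternative values, 244 lost the call and 23 turned in sign. Losses were 43 of 212 with the oocyte covariate, 151 of 1458 on leaving out a library, 18 of 203 in fits on the compared groups alone, 12 without a filter, 10 under library totals, 1 with DESeq2 and 7 of 143 without cumulus replicates 1 at 0 h and 3 at 4 h together. The oocyte sum was 5.68 to 11.8 CPM in cumulus cells at 12 h and at least 163 CPM in every other library, so this covariate and that group cannot be told apart.

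With it, 17 members were called in cumulus cells at 12 h against 0 h, 10 at 12 h against 4 h, 11 between cumulus and mural cells at 4 h and 11 for the difference between the 12 h changes. A fit on the compared groups alone called 17 in mural cells at 12 h against 4 h. The cause was not tested.

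Leaving out 1 library gave 22 to 28 members called in cumulus cells at 4 h, 23 to 26 at 12 h and 25 to 29 at 12 h against 4 h. In mural cells it gave 19 to 20, 14 to 18 and 9 to 11 for the same contrasts. Between the cell types it gave 12 to 17 at 0 h, 14 to 20 at 4 h and 16 to 20 at 12 h, and for the difference between changes 10 to 15 at 4 h and 16 to 20 at 12 h.

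Signs turned with the oocyte covariate in cumulus cells at 12 h against 0 h for Slc38a10 (-0.30), Slc38a2 (-0.32), Slc38a8 (0.48) and Slc7a9 (6.05). At 12 h against 4 h they turned for Slc36a1 (-0.0020), Slc36a4 (-0.041), Slc38a10 (-0.55), Slc38a2 (-0.48), Slc38a8 (0.027), Slc3a2 (-0.38), Slc7a1 (-0.26) and Slc7a9 (6.43). Between cumulus and mural cells they turned at 4 h for Slc38a8 (-0.38), Slc7a1 (0.0043), Slc7a2 (-1.70) and Slc7a9 (-1.91), and at 12 h for Slc38a10 (-0.058), Slc7a11 (0.61) and Slc7a8 (-0.080). The difference between the 12 h changes turned for Slc38a2 (-0.36), Slc3a2 (-0.26) and Slc7a1 (-0.38). Without cumulus replicates 1 at 0 h and 3 at 4 h, the cumulus change of Slc7a2 at 4 h was -0.0049.

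Deviations of libraries with the same replicate number had a median correlation of 0.0156 (45 pairs, range -0.29 to 0.403, 10 of them over 0.1). For pairs with different numbers it was -0.00459 (90 pairs, range -0.49 to 0.429, 10 of them over 0.1). The labels do not say what a shared number means, and these correlations cannot decide whether such libraries share animals. A replicate block lost 2 of 212 calls, those of Slc7a10 in mural cells at 12 h (adjusted p = 0.0538) and Slc1a7 in cumulus cells at 12 h (adjusted p = 0.0581), and called 24 and 27 members in cumulus cells and 21 and 19 in mural cells at 4 and 12 h against 0 h. Members under 1 CPM in every group rest on few counts.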
